A study of Zea mays with 2 samples.

Results

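The 5 genes described here encode the cysteine-rich zeins of maize and a membrane protein of the bodies that store them, and were chosen by gene identifier from the 41406 genes listed in both files. They are the gamma zein genes gz27 (GRMZM2G138727), gz50 (GRMZM2G138689) and zp16 (GRMZM2G060429), the beta zein gene zp15 (GRMZM2G086294) and Floury1 (GRMZM2G094532). Endosperm RNA of Zea mays was sequenced at 12 days after pollination, in 1 library with the genotype entry dek40 and 1 with the entry wild type. The series title and design text call the mutant dek41, so it is named here as the library labelled dek40. The allele, the inbred background, the number of kernels pooled and how the endosperm was taken from the kernel are not stated in the labels.

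Zeins are storage proteins that are made on the rough endoplasmic reticulum and packed into protein bodies within it. Gamma and beta zeins are rich in cysteine, are joined by disulfide bonds and form the outer part of a protein body, while alpha and delta zeins fill its core. Floury1 lies in the endoplasmic reticulum membrane around the body and takes part in placing alpha zeins inside it. The deposited descriptions name gz27 Glutelin-2, an older name of this gamma zein. They call both zp16 and zp15 Zein-beta, whereas the RefSeq gene table lists zp16 as gz16, and gz50 is described as uncharacterized.

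All 5 transcripts were lower in the library labelled dek40, by 3.20-fold to 12.0-fold. The log2 ratio ran from -3.59 for gz50 through -2.93 for zp16 and -2.77 for zp15 to -1.71 for gz27 and -1.68 for Floury1. Of the 28178 genes with a level of 1 or more in either library, 4.99% were lower by 2-fold or more, and all 5 members were among them. Levels below are the deposited values, in FPKM for the wild type and RPKM for dek40 (fragments or reads per kilobase of gene, scaled to library size). Ratios are dek40 over wild type on the scale of log2(value + 1), after the dek40 values were multiplied by 0.747 so that the median gene stood at 0. Each genotype has a single library, so no spread between replicates, test or p-value can be given. The 95% intervals of genes and of differences between genes cover the counting of reads alone, and lower describes these libraries only. Those of list medians are taken over the genes of a list.

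**Figure D1:**
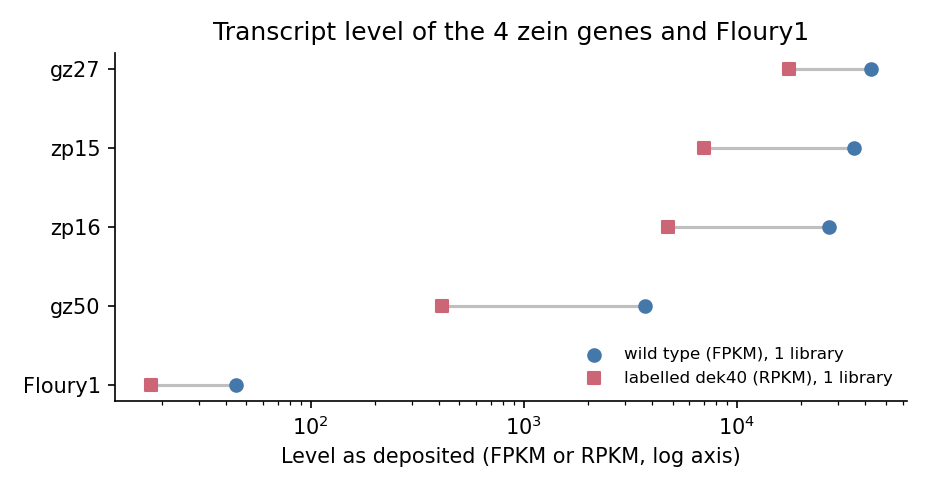
Level of each gene as deposited, in FPKM for the wild type (circles) and RPKM for dek40 (squares), on a log axis with 1 library per genotype. The dek40 square lies left of the wild-type circle for each of the 5 genes, with the widest gap at gz50 (3711 against 413).

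gz27 is the most abundant zein transcript of these libraries and encodes a gamma zein known for starting the formation of protein bodies. It stood at 42888 FPKM in wild-type endosperm and 17551 RPKM in dek40, and was at rank 3 and rank 7 among all genes of its library. These levels rest on at least 450251 and 167193 reads, or at least 2.87% of the wild-type reads and 1.18% of the dek40 reads. The level in dek40 was 3.27-fold lower after scaling and 2.44-fold lower as deposited. The log2 ratio of -1.71 had a counting interval of -1.72 to -1.70. Although lower, gz27 remained the first described gene by level in dek40.

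zp15 encodes the beta zein, which lies with the gamma zeins at the edge of the protein body and is also rich in methionine. Its level was 35635 FPKM in wild-type endosperm and 6984 RPKM in dek40, from at least 319943 and 56902 reads. It was 6.83-fold lower after scaling, a log2 ratio of -2.77 (-2.78 to -2.76). By level it was at rank 7 in the wild type and at rank 13 in dek40.

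zp16 encodes a gamma zein that is a close relative of gz27. It stood at 27113 FPKM in wild-type endosperm and 4772 RPKM in dek40, rank 8 and rank 16. The smallest whole reads that give these values were 116830 and 18658. The log2 ratio was -2.93 (-2.95 to -2.90), a level 7.60-fold lower. zp16 and zp15 thus lay close together, and their drops were 2.33 and 2.09 times the drop of gz27.

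gz50 encodes the largest of the gamma zeins and was the least abundant of the 4 zein genes. It stood at 3711 FPKM in the wild-type library and 413 RPKM in dek40, or rank 37 and rank 434. At least 53789 and 5426 reads lie behind these values. The log2 ratio was -3.59 (-3.63 to -3.55), or 12.0-fold lower after scaling and 9.00-fold as deposited. Among all 28178 genes tested, 16 had a lower ratio than gz50, against 66 for zp16, 83 for zp15, 364 for gz27 and 382 for Floury1.

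Floury1 was measured at a far lower level than the zeins, at 44.9 FPKM in wild-type endosperm and 17.9 RPKM in dek40. Its reads were at least 637 and 230, and it ranked 3195 and 9011. The log2 ratio was -1.68, and the counting interval without the pseudocount was -1.97 to -1.53. Floury1 was thus 3.20-fold lower, on far fewer reads than the zeins and with the widest interval of the 5 genes. In the wild type gz27 was 956 times as abundant per length as Floury1, and in dek40 983 times.

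The log2 ratios were then compared between members, over 10 pairs, with large-sample 95% intervals of the difference taken from the reads. In 9 of the 10 pairs the interval left out 0. The exception was gz27 and Floury1, whose log2 ratios differed by -0.03 with the pseudocount and by 0.04 without it (-0.18 to 0.26). gz27 and gz50 differed by 1.88 (1.84 to 1.92), so that gz27 went from 11.6 times the level of gz50 in the wild type to 42.5 times in dek40. The level of gz27 was 1.20 times that of zp15 in the wild type and 2.51 times in dek40. Against zp16 the ratio of levels was 1.58 in the wild type and 3.68 in dek40. zp16 and zp15 were the closest of the zein pairs, with a difference of -0.16 (-0.18 to -0.13). These ratios within a library do not depend on the scaling between libraries. The intervals hold no variation between kernels, plants or library preparations, and the differences were not tested against such variation.

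Within the gamma and beta zeins, gz27 made up 39.2% of the summed level in the wild type and 59.1% in dek40. The share of zp15 was 32.6% and 23.5%, and that of zp16 was 24.8% and 16.1%. gz50 accounted for 3.39% and 1.39%. The order of the 4 genes by level was the same in both libraries, with gz27 first and gz50 last.

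The members were next set beside the other zeins. Alpha zeins, listed by description or symbol (28 genes), were lower past 2-fold in 28 of 28 cases, with a median log2 ratio of -3.01. The 28178 genes tested had a median of 0.02. The most abundant alpha zein was Zein-alpha A20 (AF546188.1_FG005), at 23838 FPKM in wild-type endosperm and 3524 RPKM in dek40, with a log2 ratio of -3.18. The floury2 gene (GRMZM2G397687), an alpha zein, was at -3.08. The delta zein dzs18 (GRMZM2G100018), a methionine-rich zein and the only delta zein analysed here, was at 1641 FPKM and 254 RPKM, with a log2 ratio of -3.11 (-3.20 to -3.02). Of the 22 alpha zeins at 100 FPKM or more in the wild type, 0 had a smaller drop than gz27, 1 had a smaller drop than zp15, 7 than zp16 and 17 than gz50. The members therefore spanned nearly the whole order of the zeins, with gz27 near one end and gz50 near the other. Single alpha zein values are uncertain, since the copies are nearly the same in sequence and reads can be split among them. Gamma zeins are related to each other as well, and the labels do not say how shared reads were assigned.

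**Figure D2:**
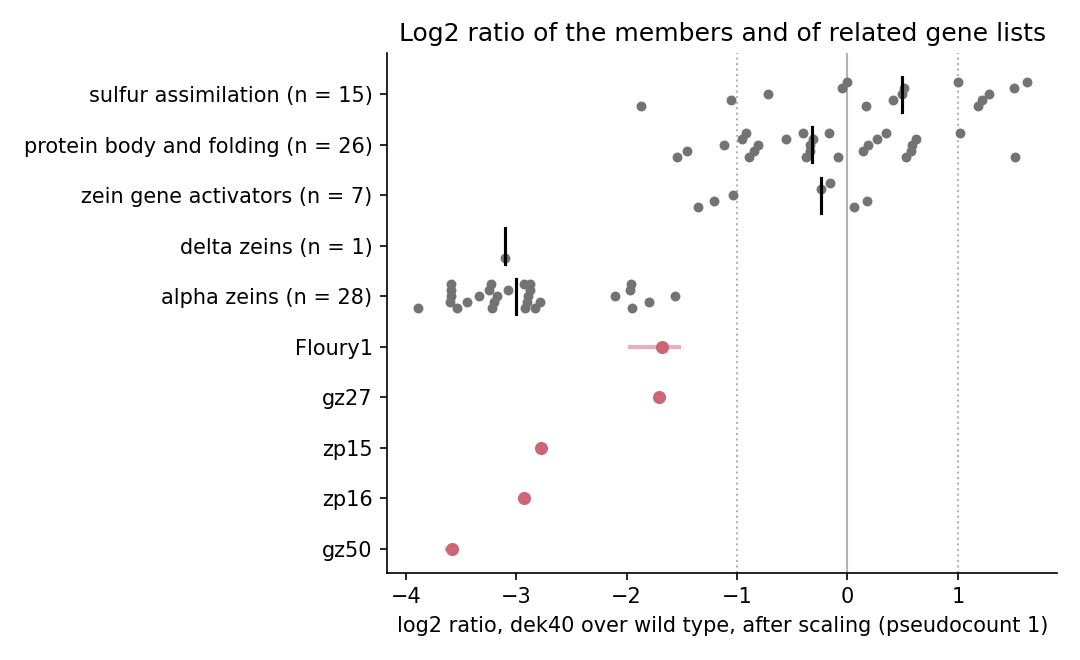
Log2 ratio of dek40 over wild type after scaling, with 1 point per gene, bars for the 95% counting interval of the 5 members and black ticks for list medians. Dotted lines mark 2-fold. gz27 (-1.71) and Floury1 (-1.68) lie right of nearly all alpha zeins, and gz50 (-3.59) lies among the lowest.

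The make-up of the zein transcript pool differed between the libraries. The pool holds only the members and the zeins listed by description or symbol, so an unnamed zein would be missing from it. The 4 gamma and beta zeins held 38.3% of the summed level of the 33 zein genes in the wild type and 55.4% in dek40, while the 28 alpha zeins held 61.1% and 44.1%. The summed level of gamma and beta zeins was 0.626 times that of alpha zeins in the wild type and 1.26 times in dek40. After scaling, the summed level was 4.92-fold lower for gamma and beta zeins and 9.88-fold lower for alpha zeins. By gene, the share of gz27 in the pool was 15.0% in the wild type and 32.7% in dek40, whereas zp15 held 12.5% and 13.0%, zp16 held 9.49% and 8.90%, and gz50 held 1.30% and 0.769%. As a part of all library reads, the 4 genes together made up at least 6.004% in the wild type and at least 1.75% in dek40, since the reads of each gene are lower bounds.

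**Figure D3:**
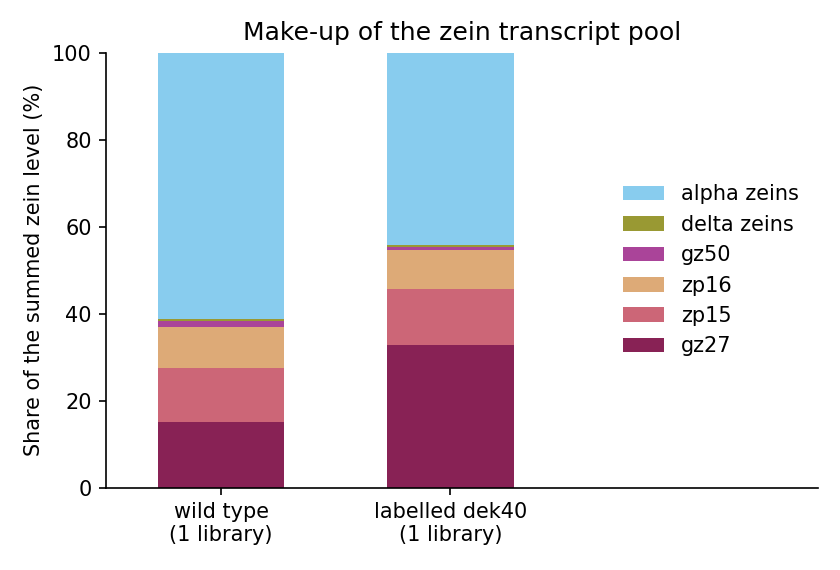
Share of each zein gene or class in the summed level of 33 zein genes, in percent, for the 1 wild-type and the 1 dek40 library. The gz27 block takes 15.0% of the wild-type bar and 32.7% of the dek40 bar, and the alpha zein block takes 61.1% and 44.1%.

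Known activators of zein genes were then examined (8 entries, 7 of them at a level of 1 or more). PBF is counted by a pair of entries. The symbols nac128, nac130 and bzip22 were also sought but matched no gene, so the list is incomplete. After scaling 3 of the 7 were lower by 2-fold and 0 were higher, against 4.99% lower and 6.33% higher among all genes tested. The list median was -0.24. With 7 genes its interval, -1.36 to 0.18, is the full range of the list. With the values as deposited 0 of them were lower, and the median was 0.20. Opaque-2 (GRMZM2G015534), a bZIP activator of alpha and beta zein genes, stood at 310 FPKM and 161 RPKM, with a log2 ratio of -1.36 (-1.42 to -1.30). The prolamin-box binding factor PBF (GRMZM2G146283), which binds zein promoters, stood at 75.8 FPKM and 43 RPKM, with a log2 ratio of -1.21 (-1.38 to -1.09). A further entry under the PBF symbol (GRMZM2G146267) had a log2 ratio of -0.16 (-0.34 to -0.01) and was within 2-fold. The ratios of opaque-2 and of both PBF entries were nearer to 0 than those of gz27 and Floury1. OHP2 (GRMZM2G007063), a bZIP protein known to act on the gz27 promoter, had 10.7 FPKM and 16.3 RPKM, with a log2 ratio of 0.18 (-0.07 to 0.46). Its partner OHP1 (GRMZM2G016150) was below the minimum level in both libraries after scaling, from deposited values of 0.473 FPKM and 1.33 RPKM. MADS47 (GRMZM2G099577), a partner of opaque-2, was low in both libraries, at 3.46 FPKM and 4.86 RPKM. The other lower gene was Nkd1 (GRMZM2G129261), at -1.04, with a counting interval of -1.13 to -0.97 that crosses the 2-fold line. Nkd2 (GRMZM5G884137) was at -0.24 (-0.37 to -0.12). Like opaque-2 and PBF, both also serve as markers below.

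Protein body and folding genes of the endoplasmic reticulum were lower in 3 of 26 cases and higher in 2, beside 4.99% lower and 6.33% higher among all genes tested. The list median was -0.32, with an interval over its genes of -0.81 to 0.27. The protein disulfide isomerase PDIL1-1 (GRMZM2G091481), an enzyme that forms disulfide bonds, was the most abundant of them, at 1416 FPKM and 1022 RPKM and a log2 ratio of -0.89. The chaperone gene bip1 (GRMZM2G114793) was at -0.96. Opaque10 (GRMZM2G346263), a protein-body protein that acts on how zeins are arranged, stood at 47.5 FPKM and 22.4 RPKM. Its log2 ratio was -1.45. No whole gene length was found for it, so its reads (at least 7 and 3) are only the smallest with this ratio. The counting interval of -4.09 to 0.63 rests on these bounds and is wider than the true reads would give. Whether an interval from the true reads would include 0 is not known. Derlin-2.2 (GRMZM2G112609) was at -1.54. An entry of PDIL5-1 (GRMZM2G443655) was at -1.11, with a counting interval of -1.24 to -0.99 that crosses the 2-fold line. A further entry of that locus (GRMZM2G073628) was within 2-fold, at -0.92. The higher genes were the calcium-binding chaperone calreticulin crt2 (GRMZM2G358059), at 1.02, and a protein disulfide isomerase (GRMZM2G106344), at 1.51. The counting interval of crt2, 0.95 to 1.10, crosses the 2-fold line. With both libraries scaled to the same sum, 1 gene of the list was lower and 5 were higher.

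A further list was made by description for sulfate uptake and for the synthesis of cysteine, methionine, S-adenosylmethionine or glutathione. ATP sulfurylase, adenylylsulfate reductase, methionine synthase and glutamate-cysteine ligase were also sought. No listed gene is described as any of these, so the list leaves out these steps. Of its 15 genes at a level of 1 or more, 6 were higher and 2 were lower. Among all genes tested 6.33% were higher and 4.99% lower. The list median was 0.49, with an interval over its genes of -0.05 to 1.22. This interval takes the genes of 1 pair of libraries as separate draws, so it is no test of the list. Sulfite reductase (GRMZM2G090338), which supplies sulfide for cysteine, was at 69.9 FPKM and 214 RPKM, with a log2 ratio of 1.18. The cysteine synthase genes were split. cys2 (GRMZM2G005887), the most abundant, was at 0.41, cys1 (GRMZM2G082185) was at 1.28, and GRMZM2G036708 was at -1.87, from 157 FPKM to 56.4 RPKM. A pair of S-adenosylmethionine synthase genes, whose enzyme uses methionine, were at 1.63 (GRMZM2G061135) and 1.51 (GRMZM2G117198). A further gene of this enzyme (GRMZM2G054123) was within 2-fold, at 0.51. The remaining higher genes were low in the wild type. They were serine acetyltransferase3 (GRMZM5G816110), at 2.35 FPKM and a log2 ratio of 1.22, and the sulfate transporter sfp1 (GRMZM2G159632), at 0.841 FPKM and 1.00. The counting interval of serine acetyltransferase3, 0.82 to 2.31, crosses the 2-fold line. The sulfate transporter sfp5 (GRMZM2G444801) was the other lower gene, at -1.05, with a counting interval of -1.20 to -0.97 that also crosses it. With the values as deposited 1 gene of the list was lower. This list also took a phosphosulfate transporter by its description (GRMZM2G005163, -0.01), which is not a sulfate transporter.

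Among genes with a description at 100 FPKM or more in the wild type and outside the zeins (1167 genes), the ratios nearest to the median of the 4 zein members (-2.85) were found. With 1 library per genotype this likeness is a single difference of log2 ratios. The nearest were AF546188.1_FG001 (-2.85) and GRMZM2G423898 (-2.86), both uncharacterized. The identifier of the first has the same stem as that of Zein-alpha A20. It counts as outside the zeins by its description alone, and whether it is a zein is not known here. The granule-bound starch synthase of the waxy locus (GRMZM2G024993) was at -2.90, a basal layer antifungal peptide gene (GRMZM2G008271) at -2.96 and the uncharacterized GRMZM2G354335 at -2.67.

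In the gene order of the RefSeq table (Zm-B73-REFERENCE-NAM-5.0), gz50 and gz27 stand next to each other with no listed gene between them, although their ratios differed by 1.88. Up to 8 listed genes on either side of each member were looked up, and 21 of those identified in the files reached a level of 1. Of these, 0 were past 2-fold in either direction, with log2 ratios from -0.94 to 0.65 and a median of -0.24. Among all genes tested 4.99% were lower and 6.33% higher, so few of 21 genes would be past 2-fold at those shares. The lowest was GRMZM2G117230, the gene on the other side of gz50, at -0.94. It was near the minimum level, at 1.12 FPKM and 0.142 RPKM, values that differ by more than 2-fold. The pseudocount keeps its log2 ratio within 2-fold, so the count of 0 depends on the pseudocount. The entries of the locus on the other side of gz27 were at -0.24 (GRMZM2G138976) and -0.35 (GRMZM5G873335). The gene beside zp15, GRMZM2G087570, was at 0.65, the highest of the 21.

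**Figure D4:**
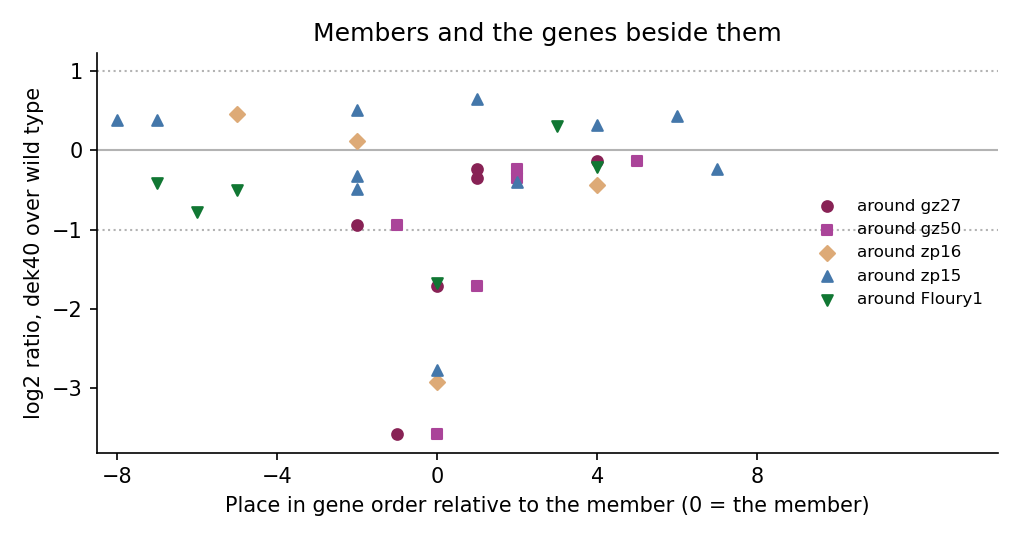
Log2 ratio of each member (place 0) and of the genes beside it that reached a level of 1, by place in the gene order of the RefSeq table. Of the other genes 0 lie past the dotted lines at 2-fold, beside 4.99% lower and 6.33% higher among all genes tested. gz50 and gz27 appear in each other's surroundings at places -1 and 1.

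Markers of the endosperm regions and of other tissues were set beside the zeins. All 5 starchy endosperm markers (sh2, bt2, wx1, opaque-2 and PBF) were present and lower by 2-fold or more after scaling (2 of 5 as deposited), their summed level being 7339 FPKM in wild-type endosperm and 3047 RPKM in dek40. The 4 markers of the basal transfer layer were lower as well, with sums of 1285 FPKM and 257 RPKM. The aleurone markers summed to 2765 FPKM and 7898 RPKM, with AL-9 higher and Nkd1 lower among the 3. The embryo markers summed to 109 FPKM and 89.9 RPKM, with ole17 at a log2 ratio of -1.30 and Globulin-1 at 0.31. A pair of green tissue markers summed to 7.34 FPKM and 6.77 RPKM but went opposite ways past 2-fold. The gene cab-m1 was at 1.17 (1.13 FPKM and 5.06 RPKM) and a chlorophyll-binding protein gene at -1.66 (6.21 FPKM and 1.71 RPKM). No gene of either file was listed at 0, so a value above 0 does not show that the tissue of a marker was present. The part of a different make-up of cells in the lower zein levels was not tested, and fewer zein-making cells cannot be told apart from less zein RNA per cell.

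The size of the drop, not its direction, depended on how the libraries were scaled. As deposited, the median gene was 1.34-fold higher in dek40, a log2 shift of 0.42. At the same time 7 genes without a description, each above 10000 FPKM in the wild type, held 18.0% of the summed level there and 19.3% in dek40. Their deposited levels in dek40 were 0.948 to 1.11 times those in the wild type, so that after scaling they too lie below the wild type. Under each of the 4 scalings tried, all 5 members were lower by more than 2-fold. The smallest drops came with equal sums, at -1.23 for both gz27 and Floury1. In that scaling gz50 was at -3.11.

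**Figure D5:**
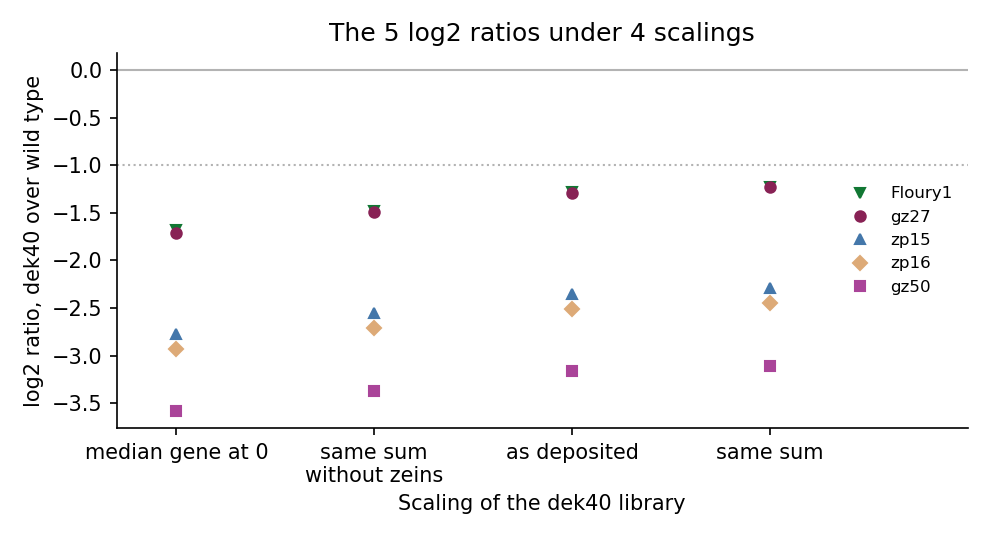
Log2 ratio of the 5 genes, dek40 over wild type with a pseudocount of 1, under 4 ways of scaling the dek40 library (1 library per genotype). All points lie below the dotted line at 2-fold, and gz27 goes from -1.71 with the median gene at 0 to -1.23 with equal sums.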

How the data were processed

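The authors deposited 1 RPKM value per gene for dek40 and 1 FPKM value per gene for the wild type, per the file headers. The submitters' processing notes name Bowtie2 2.1.0 and the build B73 RefGen_v3. The counting and the annotation were not given in the sources used here. A gene at 0 in either file was not found, so genes read in 1 library alone are not analysed here.

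The ratio of both values of a gene was resolved into whole reads times 1 constant (1.102), within a relative tolerance of 1e-13. The smallest reads that also gave a whole gene length (tolerance 1e-06 bases) were kept as lower bounds. They were found for 41377 of 41406 genes. For the other 29 the smallest whole reads with the ratio were kept, which can lie far below the true reads. Library totals were 15669149 (wild type) and 14218436 (dek40), and the bounds add up to 86.3% and 86.1% of them. Whether they count reads or read pairs is not known. Intervals (95%) are exact Clopper-Pearson for a gene, and large-sample for differences between genes. Both cover counting error only, and lower-bound reads make them at least as wide as the true reads would. Intervals of list medians are binomial, from the order of the ratios within a list. They hold no counting error and no spread between replicates.

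The dek40 values were scaled by 0.747, from 25115 genes at 1 or more in both libraries. Higher and lower mean 2-fold on log2(value + 1) with a level of 1 in at least 1 library. Scaling, pseudocount and minimum level were varied. The members and lists were chosen with earlier results of these data known. Named genes are the members, the most abundant or 2-fold changed genes of each list, and the genes nearest in ratio. Neighbouring genes were added later. Names came from the files and the RefSeq gene table (16689 identifiers matched). Python 3.11.15, numpy 2.4.6, pandas 2.3.3 and scipy 1.17.1 were used.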

Additional observations from a re-analysis of the deposited data

How the results depend on the processing

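No paired analysis was possible because there is 1 library per genotype, and no library could be left out. All 5 members stayed 2-fold lower under the 7 alternatives tried for scaling, pseudocount and minimum level. As deposited, the log2 ratios were -1.29 (gz27), -3.17 (gz50), -2.51 (zp16), -2.35 (zp15) and -1.28 (Floury1), with list medians of -2.59 (alpha zeins), -2.69 (delta zein) and 0.20 (activators). Scaled to the same sum, they were -1.23, -3.11, -2.45, -2.29 and -1.23, with medians of -2.53, -2.63 and 0.25. Scaled to the same sum without zeins, they were -1.49, -3.37, -2.71, -2.56 and -1.48, with -2.79 for alpha zeins and -2.89 for the delta zein. These shifts follow from the scaling factor. With a pseudocount of 5, Floury1 was at -1.44, and its differences were -0.27 from gz27, -2.13 from gz50, -1.48 from zp16 and -1.33 from zp15.

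Over all genes, 1406 were lower and 1784 higher. As deposited these were 771 and 4282, with the same sum 718 and 4763, with a pseudocount of 0.1 2370 and 3139, and with one of 5 558 and 514. Without zeins in the sum 2786 were higher, and at a minimum level of 5 1152 were higher. Among activators 0 were lower as deposited or with the same sum. In the folding list 1 was lower and 5 were higher with the same sum, and 1 was higher with a pseudocount of 5. In the sulfur list 1 was lower as deposited, with either sum and with a pseudocount of 5. As an alternative chosen after seeing the data, a pool whose alpha zeins are named in their description gave gamma and beta zeins 39.2% (wild type) and 56.7% (dek40). Among the 5 members counting error limits Floury1 most, and the lack of replicates limits every value.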
